A study of Mus musculus with 22 samples.

Results

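The squamous transcription factors described here are 9 genes, Trp63, Sox2, Pitx1, Klf4, Klf5, Grhl2, Grhl3, Ovol1 and Zfp750, out of 56748 gene IDs measured in each of 22 mouse tumours. They are factors known for squamous epithelium, named with earlier results of these data known, and each was found in all 22 libraries. All 9 passed the filter on low counts that left 19202 genes. Their levels were followed across the study's 4 groups and against Krt14, the gene for the type I keratin of basal squamous cells. Bulk RNA was sequenced from tumours raised in the buccal mucosa, the lining of the cheek, and labelled as squamous carcinoma.

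Every animal carried Krt5CreER-T2/+, a tamoxifen-inducible Cre recombinase under the Krt5 promoter of basal keratinocytes, with floxed Trp53 (Trp53fl/fl) and, at Rosa26 on both chromosomes, a LSL-PIK3CA(H1047R) transgene that Cre switches on. Keap1-deleted groups carried Keap1fl/fl in addition. KEAP1 is the adaptor that sends the stress-response factor NRF2 for degradation. Tumours were started with 4-hydroxytamoxifen, and those of the BAP groups with benzo[a]pyrene (BAP) as well, which is found in tobacco smoke and damages DNA; the others are called untreated. Of the Keap1-wildtype tumours 6 were untreated and 6 had BAP, and of the Keap1-deleted tumours 5 were untreated and 5 had BAP, numbered within a group in the order of deposition. Cre acts in cells that express Krt5 when 4-hydroxytamoxifen is given, and their descendants inherit the deletion. Cells of a tumour with another origin keep their Keap1. The labels state neither sex nor age, nor whether any animals gave several tumours, so the p-values below measure only the spread between these samples.

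In stratified epithelia such as skin and oral mucosa, dividing basal cells sit on a basement membrane and their daughters move up, leave the cell cycle and build a barrier. p63, encoded by Trp63, holds the basal programme, while KLF4, GRHL3, OVOL1 and ZNF750 (Zfp750 in the mouse) act in the upper layers. GRHL2 and the OVOL factors keep cells epithelial and hold down genes of the mesenchymal programme, and SOX2, KLF5 and PITX1 are further factors of oral and oesophageal epithelium.

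Promoter sequence was at hand for 3 of the 9 factors, Klf4, Grhl3 and Sox2, in a table of RefSeq starts on GRCm38.p6. It is shown for Klf4 and Grhl3, whose levels moved closely together, and for Sox2, which moved apart from the others. Each line gives the 250 bases before the start, and capitals mark matches, on either strand, to the motifs searched: GGGTG for KLF factors, ACAAAG for SOX, AACCGGTT for GRHL, TAATCC for PITX, CCGTTA for OVOL and ACATGT for the core of a p53-family half-site.
Klf4, chr4:55532476-55532725, minus strand: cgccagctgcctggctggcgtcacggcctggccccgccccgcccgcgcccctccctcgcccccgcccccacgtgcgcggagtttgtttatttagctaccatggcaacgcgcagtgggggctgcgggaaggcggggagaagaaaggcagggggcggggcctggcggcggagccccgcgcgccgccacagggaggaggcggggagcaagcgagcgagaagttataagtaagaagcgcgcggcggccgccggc
Grhl3, chr4:135573633-135573882, minus strand: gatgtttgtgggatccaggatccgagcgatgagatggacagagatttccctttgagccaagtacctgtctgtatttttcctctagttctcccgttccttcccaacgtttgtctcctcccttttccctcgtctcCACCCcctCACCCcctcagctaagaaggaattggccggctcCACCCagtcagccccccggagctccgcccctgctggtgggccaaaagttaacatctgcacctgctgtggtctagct
Sox2, chr3:34649745-34649994, plus strand: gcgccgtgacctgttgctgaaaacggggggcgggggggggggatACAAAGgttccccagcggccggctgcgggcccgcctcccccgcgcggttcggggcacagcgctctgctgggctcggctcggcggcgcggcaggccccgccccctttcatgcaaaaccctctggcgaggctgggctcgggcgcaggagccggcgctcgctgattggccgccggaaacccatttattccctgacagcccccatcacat

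The Grhl3 window held the KLF motif 3 times, and 51.3% of the 27025 promoter windows of the same length hold it at least once. The Sox2 window held the SOX motif 1 time, which 16.5% of all windows do, and the Klf4 window held none of the 6 motifs. AACCGGTT, which was in none of these windows, was in 0.122% of all windows. The remaining motifs, also without a match here, were in 6.38% (TAATCC), 2.17% (CCGTTA) and 4.75% (ACATGT) of all windows. No matches to different motifs overlapped. The windows of Klf4 and Sox2 were 74% and 72% G and C, against 56% for Grhl3.

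On GRCm38, by the GENCODE M21 annotation, the genes lie on 9 separate loci. Trp63 (ENSMUSG00000022510) is at chr16:25683763-25892102, Sox2 (ENSMUSG00000074637) at chr3:34650405-34652461, Klf5 (ENSMUSG00000005148) at chr14:99298691-99315036 and Grhl2 (ENSMUSG00000022286) at chr15:37233036-37363569, all on the plus strand. Pitx1 (ENSMUSG00000021506) is at chr13:55825051-55836192, Klf4 (ENSMUSG00000003032) at chr4:55527143-55532466, Grhl3 (ENSMUSG00000037188) at chr4:135541888-135573630, Ovol1 (ENSMUSG00000024922) at chr19:5549136-5560646 and Zfp750 (ENSMUSG00000039238) at chr11:121510978-121519333, on the minus strand.

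Library totals ranged from 29235010 to 39862777 counts. Levels are given as CPM, counts scaled to library size after TMM adjustment, which assumes that most genes are unchanged. Keap1 was at 45.8 to 78.9 CPM in the 12 wildtype libraries and at 22.2 to 36.4 CPM in the Keap1-deleted untreated group. In the Keap1-deleted BAP group it was at 9.45 to 32.2 CPM in 4 libraries and at 65.6 CPM, within the wildtype range, in the library labelled Keap1-deleted BAP 2. Nqo1, a target of NRF2, was at 19.4 to 85.8 CPM in the wildtype libraries. It was within that range in Keap1-deleted BAP 4 (54.3 CPM). Keap1-deleted BAP 3 was just under the lowest wildtype library, Keap1-wildtype untreated 6 (19.401 against 19.406 CPM). Nqo1 was above the range in the other Keap1-deleted libraries. Krt14 was low in Keap1-wildtype untreated 6 (763 CPM) and lowest in Keap1-deleted BAP 4 (13 CPM, with Krt5 at 1.8 CPM), so the labelled cell type had little support from its basal keratins in the latter. Counts of factors called between groups are given with and without these libraries. Marker sums, ratios to Krt14 and the genes most like each factor are given with all of them.

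Per kilobase of effective length, the factors differed widely in level. In the Keap1-wildtype BAP group Klf4 was highest, at a median of 219 CPM per kb (lowest 121, highest 444). Zfp750 (67.8), Grhl3 (65.9), Pitx1 (64.6), Klf5 (54.4), Trp63 (53.1) and Ovol1 (49.9 CPM per kb) followed, and each overlapped its neighbours in this order. Grhl2 was lower, at 8.42 CPM per kb (6.02 to 9.81), and Sox2 lowest, at 1.61 CPM per kb (0 to 3.6). The ranges of Klf4, of Grhl2 and of Sox2 overlapped none of their neighbours in that group. For 8 of the 9 factors the group medians ran downward from Keap1-wildtype BAP through Keap1-wildtype untreated and Keap1-deleted untreated to Keap1-deleted BAP. Pitx1 was the exception, with medians of 172, 135, 142 and 5.1 CPM in the same order of groups. Groups next to each other in the order of their medians overlapped for every factor, except that Trp63 and Grhl2 did not overlap between the Keap1-deleted groups.

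**Figure D1:**
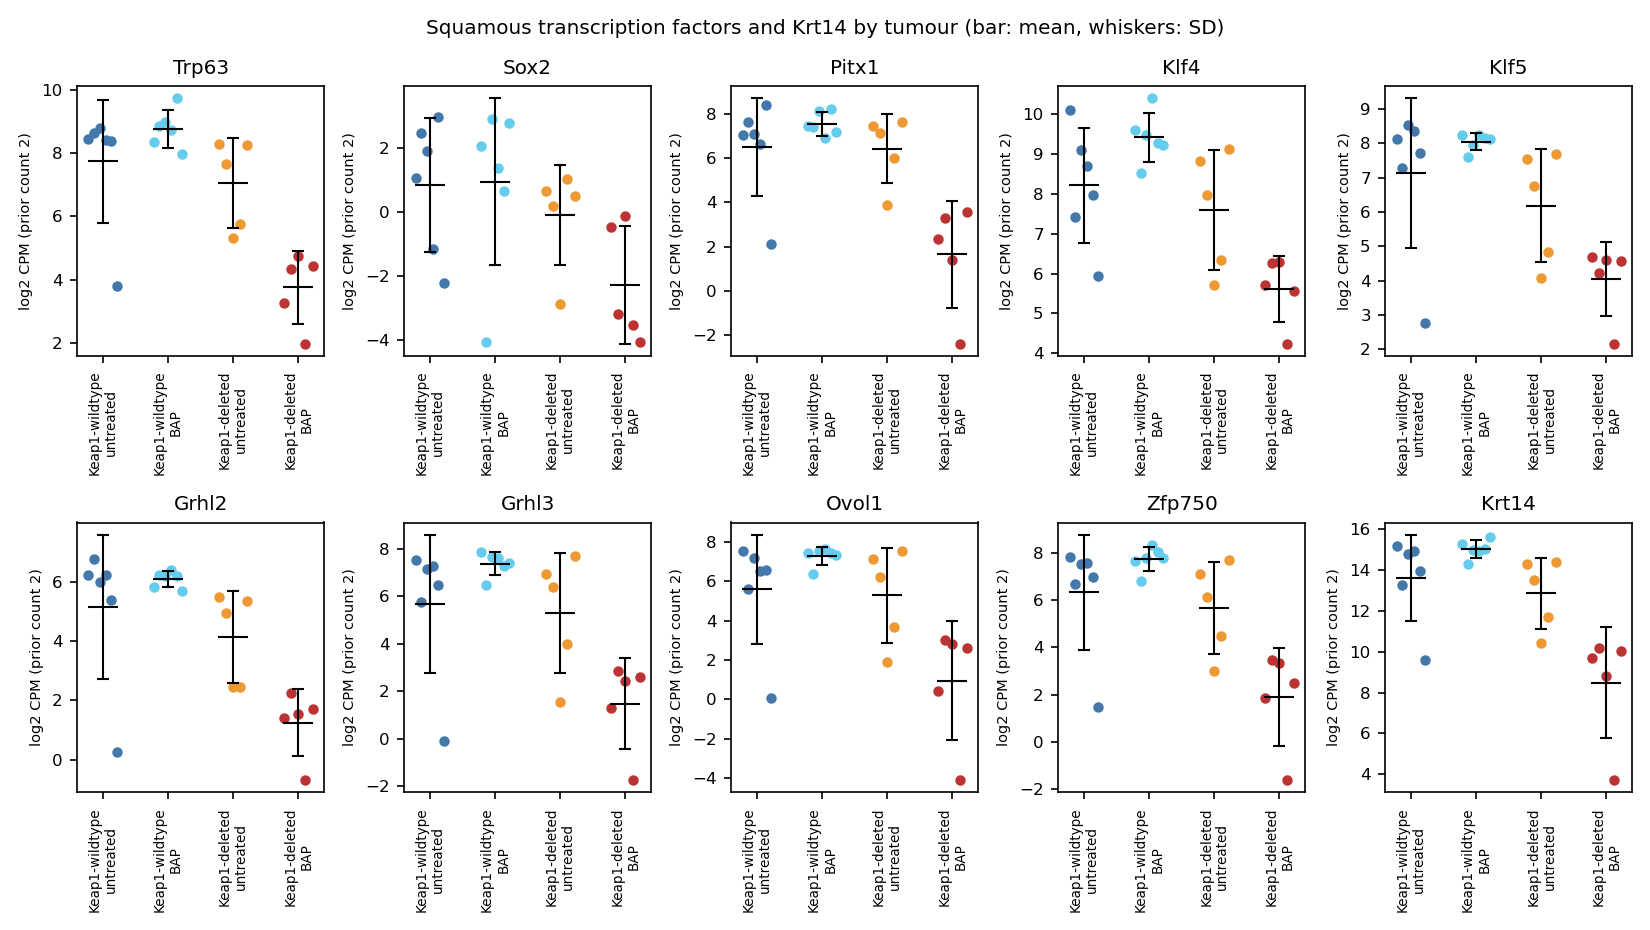
Level of each of the 9 factors and of Krt14 in every tumour, as log2 CPM with a prior count of 2, by group; points are tumours, black bars group means and whiskers SD. The Keap1-deleted BAP tumours have the lowest mean for each factor, and Keap1-wildtype untreated 6 and Keap1-deleted untreated 3 lie near them.

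The first question was what Keap1 deletion did in tumours started with BAP. All 9 factors were lower in Keap1-deleted than in Keap1-wildtype BAP tumours and passed the test (edgeR quasi-likelihood test, Benjamini-Hochberg adjusted p under 0.05 over all genes tested), while 20% of all genes tested fell, 20.3% rose and 40.3% changed in either direction. Of the 7746 genes called, 3900 were higher, and with library totals as the scaling 6051 of 8244. The median log2 change of the 9 was -4.85, against 0 over all genes. For 8 of the 9, Sox2 being the exception, no Keap1-deleted BAP tumour reached the lowest Keap1-wildtype BAP tumour, which held for 13.7% of all genes in that direction. Krt14 fell alongside them, by 5.62 on the log2 scale (SE 1.03, adjusted p = 5.39e-04).

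Trp63, the basal master regulator, was at 250 CPM at the lowest, 445 at the median and 856 at the highest in the Keap1-wildtype BAP group. The 5 Keap1-deleted BAP tumours gave 9.53, 20.2, 26.8, 3.86 and 21.5 CPM. Every tumour labelled Keap1-deleted was thus far under every wildtype tumour of these groups, and Trp63 fell by 4.85 on the log2 scale (SE 0.77, adjusted p = 3.32e-04), or 28.8-fold. Isoforms with and without the transactivation domain are counted together here. Klf5, a Krüppel-like factor of proliferating basal cells, was at 193 to 305 CPM (median 283) in Keap1-wildtype BAP tumours. In Keap1-deleted BAP tumours it was at 25.9, 18.7, 24.1, 4.43 and 23.5 CPM, and it fell by 3.80 on the log2 scale (SE 0.76, adjusted p = 9.08e-04). The deleted group was tight apart from tumour 4, which was lowest.

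Pitx1, a homeodomain factor of oral epithelium and hindlimb, was at 119 CPM at the lowest, 172 at the median and 299 at the highest in Keap1-wildtype BAP tumours. Keap1-deleted BAP tumours gave 5.1, 9.8, 2.6, 0.134 and 11.8 CPM. The groups lay far apart, and Pitx1 fell by 5.06 on the log2 scale (SE 0.96, adjusted p = 6.74e-04). Sox2, an HMG-box factor that is often gained in human squamous carcinomas, was scarce throughout. It was at 4.11, 0, 7.4, 2.52, 1.49 and 6.76 CPM in Keap1-wildtype BAP tumours and at 0.664, 0.0505, 0.846, 0.0268 and 0 CPM in Keap1-deleted BAP tumours. The groups overlapped, because wildtype tumour 2 had no Sox2 count, which allows up to 0.0956 CPM at a limit of 3 counts. Sox2 fell by 3.52 on the log2 scale (SE 1.27, adjusted p = 0.0322), a call that was lost without any of Keap1-wildtype BAP 3 or 6 or the libraries labelled Keap1-deleted BAP 2, 4 or 5.

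Klf4, a Krüppel-like factor needed for the skin barrier in the mouse, was at 368 CPM at the lowest, 668 at the median and 1354 at the highest in Keap1-wildtype BAP tumours. In the Keap1-deleted BAP group it was at 52.1, 76.9, 78.3, 18.8 and 47.2 CPM. It fell by 3.76 on the log2 scale (SE 0.71, adjusted p = 6.41e-04), and the lowest of the deleted tumours was again tumour 4. Zfp750, a zinc-finger factor that p63 switches on as keratinocytes differentiate, went from 112 to 319 CPM (median 219) in the wildtype group to 3.62, 11, 10.1, 0.268 and 5.6 CPM in the deleted group. Zfp750 fell by 5.19 (SE 0.996, adjusted p = 7.15e-04) on the log2 scale, or 36.5-fold. In both genes the groups did not touch.

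Grhl2, a Grainyhead-like factor that maintains E-cadherin and junction genes, was at 51.8 to 84.5 CPM (median 72.5) in Keap1-wildtype BAP tumours. Keap1-deleted BAP tumours gave 2.62, 4.72, 2.87, 0.563 and 3.24 CPM, and Grhl2 fell by 4.61 on the log2 scale (SE 0.81, adjusted p = 4.67e-04). Grhl3, its relative in barrier formation and wound closure, was at 88 to 233 CPM (median 184) and at 2.38, 7.18, 5.39, 0.241 and 5.98 CPM in the same groups. Grhl3 fell by 5.36 (SE 1.10, adjusted p = 0.00111), or 41.2-fold, the largest estimate of the 9. Ovol1, a zinc-finger factor that takes keratinocytes out of the cell cycle, was at 81.2 to 197 CPM (median 174) in wildtype and at 1.27, 7.98, 6.83, 0 and 6.1 CPM in deleted BAP tumours. The count of 0, in tumour 4, allows up to 0.0805 CPM. Ovol1 fell by 5.18 (SE 1.19, adjusted p = 0.00226) on the log2 scale, and none of the 3 genes overlapped between the groups.

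**Figure D2:**
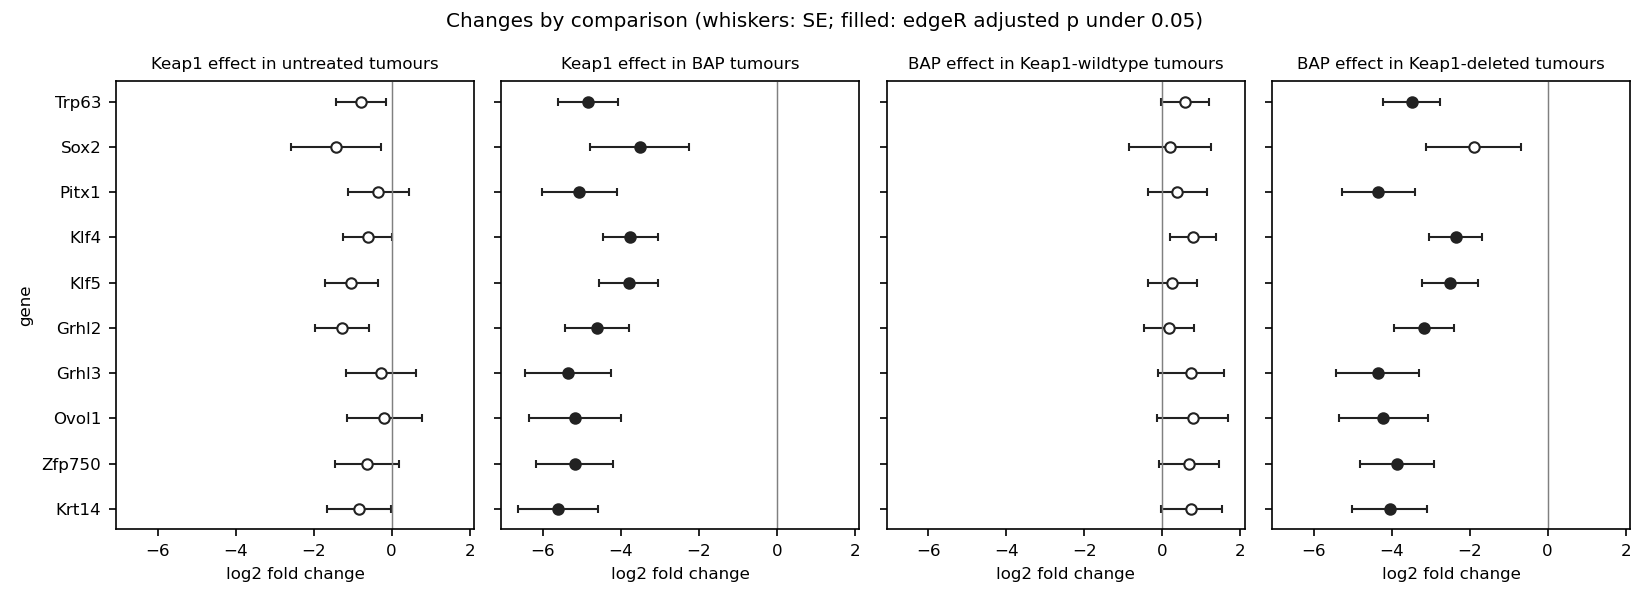
Log2 fold change of each factor and of Krt14 in the 4 pairwise comparisons; points are edgeR estimates, whiskers SE, and filled points have an adjusted p under 0.05. All 10 genes are filled and between -5.62 and -3.52 for Keap1 deletion in BAP tumours, none is filled for Keap1 deletion in untreated tumours or for BAP in Keap1-wildtype tumours, and 9 of 10, all but Sox2, are filled for BAP in Keap1-deleted tumours.

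The 8 factors other than Sox2 passed when any 1 of the 22 libraries was left out, while 6768 to 8198 of all genes were called. They also passed without Keap1-wildtype untreated 6 and the libraries labelled Keap1-deleted BAP 2, 3 and 4 together. So they did among the libraries whose titles do not end in R, a mark the labels do not explain. In these fits 5191 and 6124 of all genes were called, 2826 and 3257 of them higher. Sox2 had edgeR adjusted p of 0.164 and 0.102 there. Its call was also lost with library totals (adjusted p = 0.0549), limma-voom (0.0601) and no low-count filter (0.0536). Reads of overlapping genes limit 3 of the values, since whether counting used strand is not given in the sources used here. Pitx1 overlaps the antisense gene Gm47071 (median 18.4 CPM over the 22 libraries), Grhl2 overlaps the antisense gene Gm16136 (29.0 CPM), and Zfp750 lies within Tbcd on the opposite strand (67.4 CPM).

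Other genes of the same programmes moved in the same comparison. Of 28 other epithelial transcription factors, 24 fell and 1 rose, with a median of -3.8 on the log2 scale. Elf3, an ETS factor of epithelial differentiation, fell by 7.49 (SE 1.19, adjusted p = 3.32e-04), and Trp73, the p63 relative (-5.54), Sox15 (-5.01) and Prdm1 (-2.43) fell too. The one that rose was Tbx3, by 2.86 (adjusted p = 0.00379), named after its value was seen. Among 18 basal genes linked to p63, 16 fell, including the P-cadherin gene Cdh3 (-4.09), Fgfr2 (-3.84), the laminin chain Lamb3 (-4.70) and the hemidesmosome integrin Itgb4 (-3.46), while Itgb1 rose (1.45) and Dst did not pass (-0.27). All 22 differentiation genes linked to KLF4, ZNF750 and GRHL3 fell, with a median of -5.39. Sprr3, a precursor of the cornified envelope, fell by 8.67, and Sprr1a (-6.74), the crosslinking enzyme Tgm1 (-5.37) and the ceramide synthase Cers3 (-5.35) fell as well.

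Of 16 epithelial genes linked to GRHL2 and the OVOL factors, 15 fell, among them the E-cadherin gene Cdh1 (-4.90), the plakophilin Pkp3 (-5.12), the membrane protease St14 (-4.32) and its inhibitor Spint1 (-3.52). Only Cldn7 of this list did not pass (-2.85, adjusted p = 0.144). Of 8 mesenchymal transcription factors that GRHL2 and the OVOL factors are known to oppose, 6 rose and 1 fell. Zeb2 rose by 4.03 (SE 0.61, adjusted p = 3.14e-04), Zeb1 by 4.08, Snai1 by 5.19 and Tcf4 by 1.89 on the log2 scale, while Snai2 fell by 1.70 and Twist2 gave 0.43 without passing. Without the 4 libraries named above, the falls numbered 24 of 28, 14 of 18, 21 of 22 and 15 of 16 in these lists, and the mesenchymal factors again 6 up and 1 down.

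Markers of some other cell types rose where the factors fell in this comparison. All 10 fibroblast and all 10 macrophage markers rose in Keap1-deleted BAP against Keap1-wildtype BAP tumours, as did 9 of 10 skeletal muscle markers. Without the 4 libraries these counts were 7, 10 and 9 of 10. Of 10 endothelial markers 1 rose, of 10 Schwann cell and nerve markers 1 rose and 3 fell, of 9 leukocyte markers tested 3 rose and 2 fell, and of 4 salivary gland markers tested 1 rose. Summed fibroblast marker level was 1024 to 2398 CPM in Keap1-wildtype BAP and 12749 to 42878 CPM in Keap1-deleted BAP tumours, with 561 to 36926 and 3570 to 75798 CPM in the wildtype and deleted untreated groups. For the macrophage list the ranges were 103 to 244 and 1814 to 3907 CPM in the BAP groups and 88.8 to 3919 and 478 to 1682 CPM in the untreated ones. Skeletal muscle markers summed to 6.93 to 82 and 20 to 1347 CPM in the BAP groups and 5.68 to 477 and 172 to 1797 CPM in the untreated groups. No fibroblast or macrophage marker was at 0 in any library, whereas Ckm, Myh4 and other muscle markers were at 0 in some libraries of 3 groups. For BAP in Keap1-deleted tumours no fibroblast, macrophage or skeletal muscle marker was called (median log2 changes 0.11, 1.38 and -0.09). The part of these cells in the results was not tested. In bulk tissue fewer squamous cells and less RNA per squamous cell cannot be told apart.

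In untreated tumours, none of the 9 factors was called between the Keap1 genotypes, and 0.292% of all genes were. By DESeq2 and limma-voom the count was also 0, of 944 and 1888 genes called. In the edgeR fit none of the 9 had an unadjusted p under 0.05, while 3382 of all genes had. The median log2 change was -0.63, against -0.05 over all genes, and the 95% intervals were wide. Grhl2 came nearest, at -1.26 (interval -2.62 to 0.10, edgeR adjusted p = 0.344). Without the 4 libraries it passed (-1.48, edgeR adjusted p = 0.0493), as did 2391 genes in all. With all libraries, Ovol1 was at -0.19 (-2.08 to 1.69) and Grhl3 at -0.27 (-2.01 to 1.47). Both groups were spread. Keap1-wildtype untreated tumours had Grhl2 at 75.4, 108, 63.4, 75.5, 41.9 and 1.14 CPM, the last being tumour 6. Keap1-deleted untreated tumours had it at 44.7, 30.7, 5.4, 5.37 and 40.6 CPM, so that tumours 3 and 4 were low. The same 3 tumours were the low ones for the other factors but Sox2: Grhl3 was at 0.881 CPM in wildtype tumour 6 and at 2.87 and 15.8 CPM in deleted tumours 3 and 4, against 55.1 CPM or more in the rest of the untreated tumours. Neither fibroblast nor macrophage markers gave a call in this comparison, and 56 genes did in all. Without Keap1-wildtype untreated 6 and the library labelled Keap1-deleted BAP 2, 2530 genes were called, 1544 of them higher. Among these were 9 of 10 macrophage, 6 of 10 endothelial and 3 of 10 fibroblast markers and 4 of 8 mesenchymal factors.

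For BAP in Keap1-wildtype tumours none of the factors passed, and 0% of all genes passed with edgeR. Of all genes 2622 had an unadjusted p under 0.05, none of them a factor, and DESeq2 called 892 genes and limma-voom 0, again none of them a factor. Point estimates were all positive, from 0.17 for Grhl2 (95% interval -1.09 to 1.43) to 0.79 for Klf4 (-0.37 to 1.95). Those of Sox2 and Grhl2 turned negative when Keap1-wildtype untreated 6 and the library labelled Keap1-deleted BAP 2 were left out (-0.055 and -0.084).

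Keap1-deleted tumours gave lower factors with BAP than without. Of the 9, 8 fell, all but Sox2, against 5.16% of all genes, and their groups did not overlap for Trp63, Pitx1 and Grhl2, against 3.54% of all genes. Pitx1 was at 173, 142, 14.9, 64.5 and 201 CPM in Keap1-deleted untreated tumours, each above the highest of the BAP tumours, 11.8 CPM, and fell by 4.34 (SE 0.94, adjusted p = 0.0172). Trp63 was at 317, 201, 39.4, 54.2 and 309 CPM in untreated tumours, against 26.8 CPM at most with BAP, and fell by 3.49 (SE 0.73, adjusted p = 0.0161). Grhl3 fell by 4.36 (SE 1.06, adjusted p = 0.0244) with overlap, since deleted untreated tumour 3 had 2.87 CPM. Klf4 (-2.35, adjusted p = 0.043) and Klf5 (-2.51, adjusted p = 0.0444) were nearest the threshold, and Sox2 did not pass (-1.89, adjusted p = 0.42).

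The count for BAP in Keap1-deleted tumours changed with single libraries. It ranged from 2 to 8 as each library was left out, while calls over all genes ranged from 181 to 1722 (1172 with all libraries). The estimates moved less, from -4.67 to -3.70 for Grhl3 and from -3.45 to -2.87 for Grhl2. The count of factors dropped by more than 1.5 times without any 1 of the Keap1-deleted BAP tumours or of Keap1-deleted untreated 1, 2 and 5. It was 4 without the 4 libraries and 0 among titles not ending in R, with 572 and 11 genes called in all. Trp63 and Pitx1 kept their calls with each library left out.

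The Keap1 effect itself was compared between BAP and untreated tumours by an interaction term. Its estimate was more negative with BAP for all 9 factors, and 7 of them passed, all but Sox2 and Klf5, against 4.47% of all genes. Of the 1333 genes called 475 were higher, and 1102 of 1772 with library totals. Grhl3 gave -5.09 (SE 1.33, adjusted p = 0.033), Ovol1 -4.98, Pitx1 -4.73 and Trp63 -4.07 (SE 0.93, adjusted p = 0.0293). Klf5 gave -2.77 (adjusted p = 0.0717) and Sox2 -2.09 (adjusted p = 0.427). The number ran from 0 to 8 as single libraries were left out, and calls over all genes from 1 to 2309, with 1 or 2 genes called in all where the factors gave 0. It was 0 without Keap1-deleted untreated 1, 2 or 5 or Keap1-deleted BAP 4, 1 without Keap1-deleted BAP 1, 2 without Keap1-deleted BAP 5, Keap1-wildtype BAP 4 or Keap1-wildtype untreated 5, and 4 without Keap1-wildtype BAP 1, 3, 5 or 6. It was 3 without the 4 libraries (649 genes called in all) and 0 without a low-count filter (111 genes). Among titles not ending in R it was 0 (680 genes), and Keap1-wildtype untreated 4 and 6 alone remained of their group. Every estimate was negative in each of those fits.

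How tightly each factor followed Krt14 was first asked within groups, as a slope of log2 level on log2 Krt14 beside the 4 group terms. Of the 9, 8 had a positive slope that passed, against 7.85% of all genes (1507 of 2625 called were positive, and 993 of 2669 with library totals). The count was 8 with any library left out and with Krt5 in place of Krt14. Ovol1 had a slope of 1.29 (SE 0.13, adjusted p = 1.17e-06) and Grhl3 1.10 (SE 0.12, adjusted p = 3.28e-06). Zfp750 (0.96, SE 0.10) and Pitx1 (0.89, SE 0.14) came next, near the slope of Krt5, 0.98 (SE 0.10). Klf5 (0.63, SE 0.09), Grhl2 (0.61, SE 0.12), Trp63 (0.55, SE 0.11) and Klf4 (0.50, SE 0.09) changed less per change of Krt14. Sox2 had 0.53 with an SE of 0.34 and did not pass (adjusted p = 0.34). Differences between slopes were not tested. The slope of Pitx1 was lost without the 4 libraries (0.52, adjusted p = 0.177).

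**Figure D3:**
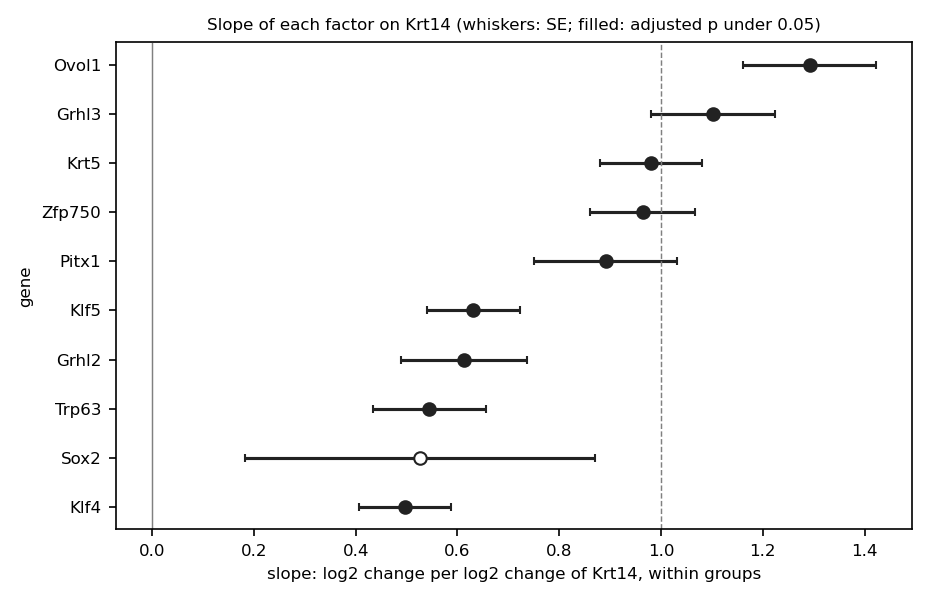
Slope of each factor, and of Krt5, on Krt14 within groups, as log2 change per log2 change of Krt14 over 22 tumours; points are edgeR estimates, whiskers SE, filled points pass, and the dashed line marks a slope of 1. Ovol1 (1.29) and Grhl3 (1.10) lie above 1 and Klf4 (0.50), Sox2 (0.53, open) and Trp63 (0.55) lowest.

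With Krt14 as a covariate no factor passed in any of the 5 contrasts. The background then was 0.703% of genes for Keap1 in untreated tumours, 0.0104% for BAP in Keap1-deleted tumours and 0% in the other contrasts. For Keap1 deletion in BAP tumours all 9 factors had an unadjusted edgeR p under 0.05 before the covariate, as had 9368 genes in all. With the covariate 1 factor had such a p, Ovol1, whose estimate was then positive (2.21, SE 0.78, adjusted p = 0.63). The number of all genes with such a p was not counted for the covariate fit. Trp63 gave -1.44 (SE 0.83, adjusted p = 0.895). No BAP-treated Keap1-deleted tumour had a Krt14 level that any Keap1-wildtype BAP tumour had, and the levels between the BAP groups, 1159 and 20039 CPM, were held by 6 untreated tumours alone. The slope is 1 value per gene over all 22 libraries.

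A gap of 5.1 on the log2 scale set Keap1-deleted BAP 4 apart by its Krt14 level. The next widest gap, 1.58, was used to divide the tumours into sets, and the one after it was 1.26. In 14 tumours, 5 Keap1-wildtype untreated, all 6 Keap1-wildtype BAP and 3 Keap1-deleted untreated, Krt14 was at 9991 to 50546 CPM. In the other 8, wildtype untreated 6, deleted untreated 3 and 4 and all 5 Keap1-deleted BAP tumours, it was at 13 to 3336 CPM. Correlations were therefore taken within each set, a choice made after the levels were seen, and adjusted over 18 relations. All libraries share their scaling, and the sets differ in the groups they hold.

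Among the 14 Krt14-high tumours, 5 factors rose with Krt14 by permutation test: Grhl3 (r = 0.858, rho = 0.754, p = 0.00013, adjusted p = 9.45e-04), Zfp750 (r = 0.843, rho = 0.789, p = 0.00021), Klf5 (r = 0.838, rho = 0.67, p = 0.00018), Klf4 (r = 0.82, rho = 0.802, p = 0.00029) and Ovol1 (r = 0.793, rho = 0.64, p = 0.00076, adjusted p = 0.00228). Each of these r was positive within the 6 tumours with an R title (0.855 to 0.962) and within the 8 without (0.66 to 0.899). Without the 2 tumours farthest from the median Krt14 level, the r values were 0.701, 0.708, 0.693, 0.649 and 0.533 in the order above. Trp63 (r = 0.226, rho = 0.125, adjusted p = 0.525), Grhl2 (0.198, rho = 0.156), Sox2 (0.129, rho = 0.16) and Pitx1 (-0.211, rho = -0.174) did not pass by the same permutation test. Whether the r values of these 4 differ from those of the 5 was not tested.

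The choice of keratin mattered in these 14 tumours. Against Krt5, Klf4 (r = 0.374), Grhl3 (0.392) and Ovol1 (0.307) lost the call, with adjusted permutation p of 0.242, 0.227 and 0.343, and Grhl2 gained it (r = 0.63, adjusted p = 0.0296 by permutation). Klf5 and Zfp750 kept it. All-gene medians of r with Krt14 were near 0 (-0.043), and 0.682% of genes had a higher r than Grhl3.

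In the 8 Krt14-low tumours Pitx1 followed Krt14 most closely (r = 0.964, rho = 0.976, exact permutation p = 7.44e-05, adjusted p = 9.45e-04), and r was 0.962 without the 2 tumours farthest from the median. Pitx1 was 5.8 to 11.1 CPM per 1000 CPM of Krt14 in Keap1-deleted BAP tumours. Zfp750 (r = 0.91, rho = 0.714), Ovol1 (0.893, rho = 0.667), Grhl2 (0.856, rho = 0.905), Trp63 (0.848, rho = 0.714), Grhl3 (0.828, rho = 0.738) and Klf5 (0.762, rho = 0.452) also passed, with adjusted exact permutation p of 0.0178 to 0.0484. The median r of all genes with Krt14 was 0.075 in this set. Of all genes 0.0782% had a higher r than Pitx1 and 4.08% a higher r than Klf5. By Spearman's rho, Pitx1 and Grhl2 alone passed in this set (adjusted exact permutation p of 0.00714 and 0.0164). Apart from that of Pitx1, these Pearson values rested on the 2 farthest tumours, Keap1-deleted untreated 4 and Keap1-deleted BAP 4. Without both, r was 0.068, 0.08, 0.536, 0.232, 0.09 and -0.046 in the same order. Leaving out Keap1-deleted BAP 4 alone gave 0.588, 0.465, 0.616, 0.624, 0.558 and 0.264 in that order. None of these passed (adjusted exact permutation p of 0.314 to 0.595). Klf4 (r = 0.866, rho = 0.429, adjusted exact permutation p = 0.0663) and Sox2 (0.385, rho = 0.19) did not pass.

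**Figure D4:**
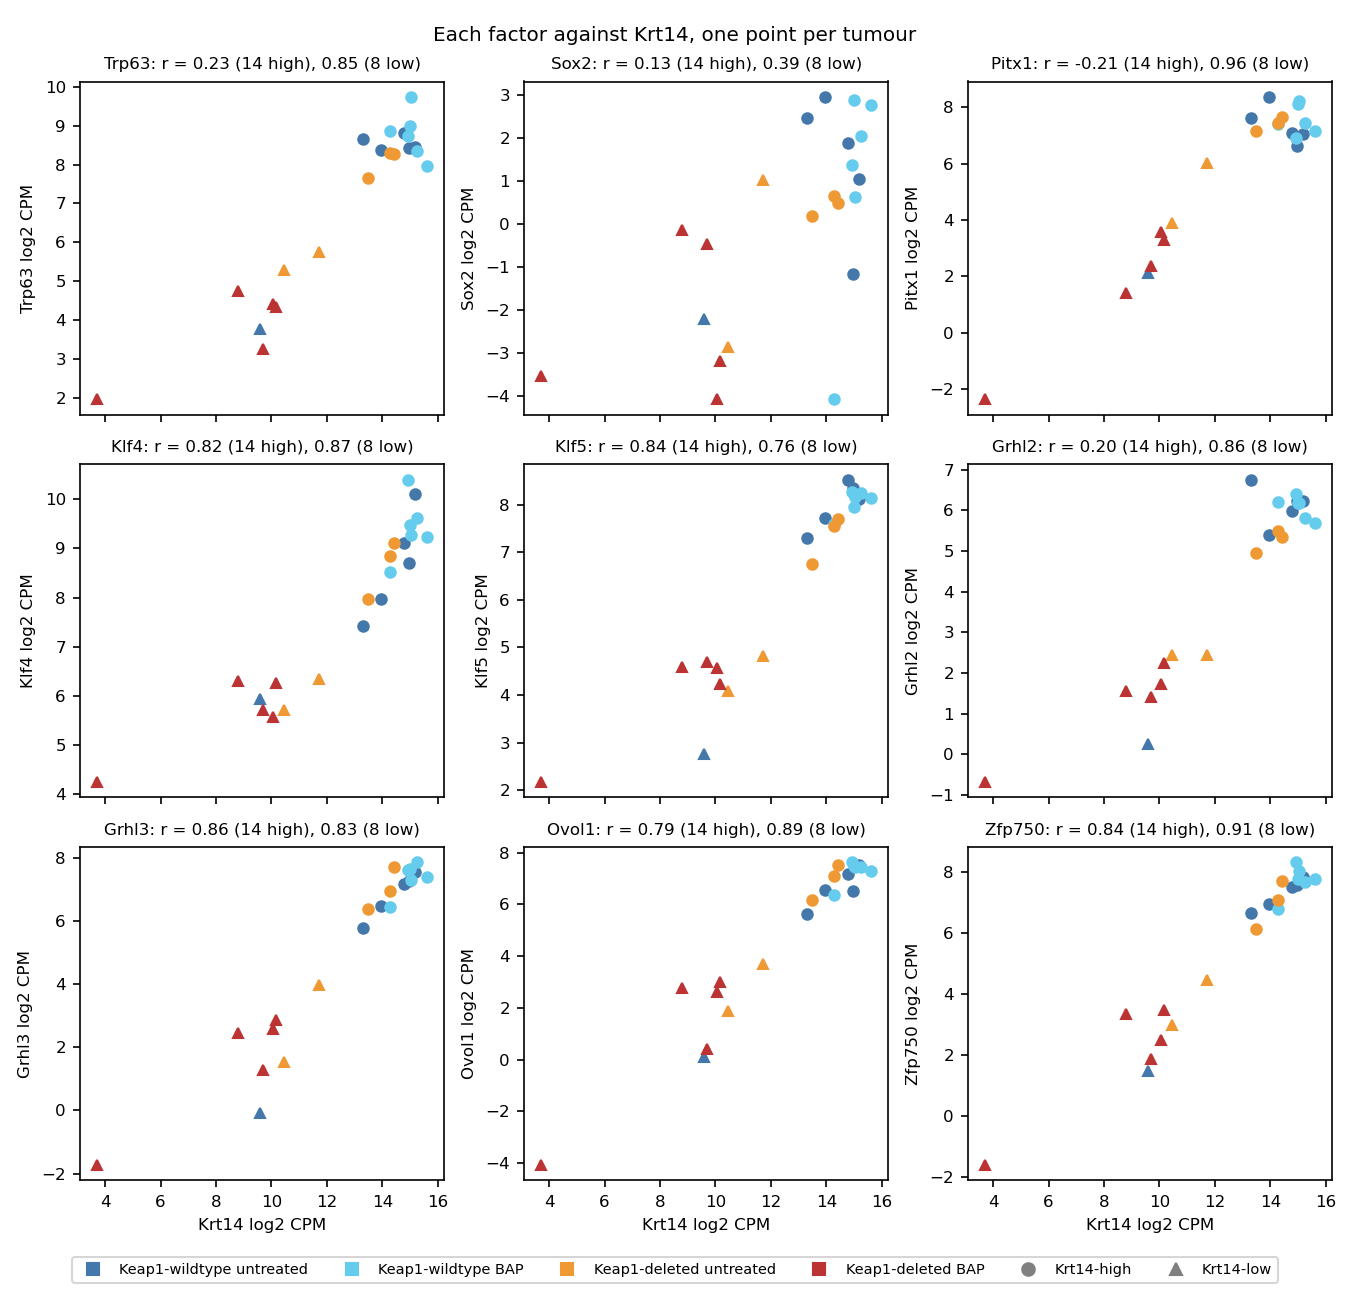
Log2 CPM of each factor against log2 CPM of Krt14, a point per tumour, coloured by group; circles are the 14 Krt14-high and triangles the 8 Krt14-low tumours, and panel titles give Pearson r within each set. The single triangle at the far left is Keap1-deleted BAP 4 (Krt14 at 13 CPM), and in the Krt14-high set Klf4, Klf5, Grhl3, Ovol1 and Zfp750 slope upward (r of 0.793 to 0.858).

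Set against Krt14, the factors differed in how much of their level was left. Klf4 per 1000 CPM of Krt14 was at a median of 19.2 (11.9 to 43.8) in Keap1-wildtype BAP and 66.4 (44.4 to 1445) in Keap1-deleted BAP tumours. Klf5 was at 8.04 (5.56 to 9.87) and 31.4 (16.1 to 340). Grhl3 was at 5.30 and 6.19, and Ovol1 at 4.78 and 5.74, per 1000 CPM of Krt14. Any gene that fell less than Krt14 is higher in this ratio: Keap1 was at 1.64 (1.10 to 3.22) and 36.1 (14.1 to 2474). These ratios describe the same levels as above and were not tested.

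Among themselves, 11 of 36 pairs of factors were correlated in the Krt14-high tumours by permutation test (adjusted p under 0.05 over 36 pairs), all positively. Of these, 10 were the pairs among Klf4, Klf5, Grhl3, Ovol1 and Zfp750. By Spearman's rho 6 pairs passed, those among Klf4, Grhl3, Ovol1 and Zfp750, and the 4 pairs with Klf5 did not (adjusted permutation p of 0.0974 to 0.308). Grhl3 with Ovol1 gave r = 0.926 (rho = 0.864, adjusted p = 3.6e-04, and 0.836 without the 2 farthest tumours), Klf4 with Ovol1 0.907 (rho = 0.93) and Klf4 with Grhl3, whose promoters are shown above, 0.888 (rho = 0.868). The remaining pair was Trp63 with Grhl2, at r = 0.635 (adjusted p = 0.0433, and 0.602 without the 2 farthest). Its rho of 0.653 did not pass (adjusted permutation p = 0.0686). Pitx1 and Sox2 passed with no other factor in this set, with r of -0.261 to 0.415 and -0.093 to 0.332. In the Krt14-low set 24 of 36 pairs passed, but their r ran from -0.439 to 0.912 without the 2 farthest tumours, and by Spearman's rho 3 passed.

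**Figure D5:**
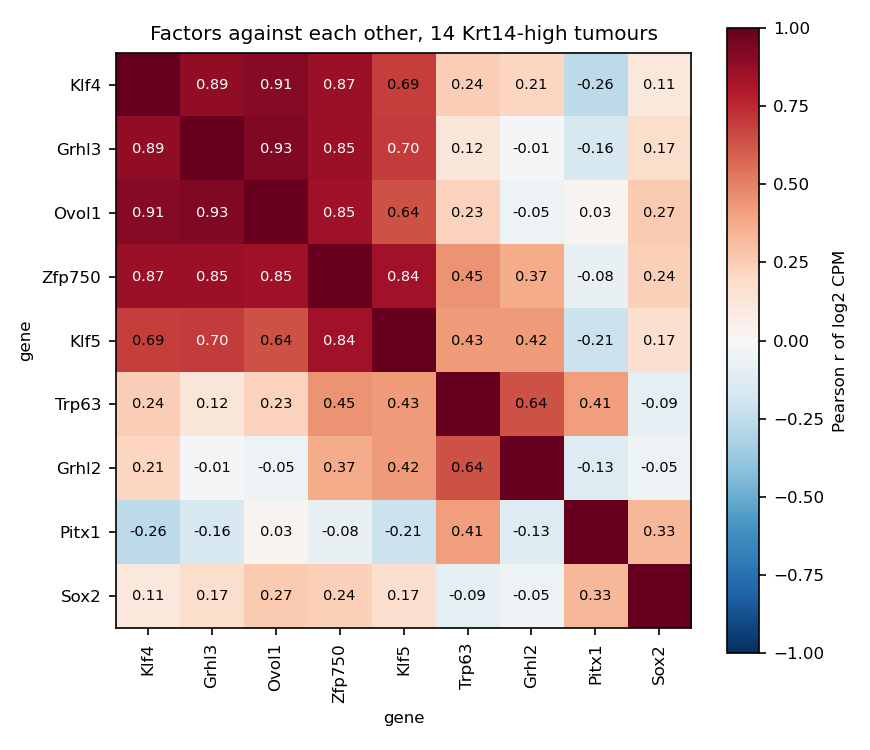
Pearson r of log2 CPM between each pair of factors over the 14 Krt14-high tumours, from -1 (blue) to 1 (red), with both axes listing genes. Klf4, Grhl3, Ovol1, Zfp750 and Klf5 form a block of positive values (0.636 to 0.926), and Trp63 with Grhl2 (0.635) lies outside it.

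The genes most like each factor over the 22 tumours were named by Pearson r alone, pooled over the Krt14-high and Krt14-low tumours and given as a description. Nearest to Trp63 and to Grhl2 was Map7, a microtubule-binding protein (r = 0.989 and 0.99), with Fermt1 and Mreg following for Trp63 and Kdf1 and Mreg for Grhl2. Zfp750 was nearest to the desmosomal Pkp3 (0.996) and Perp (0.995), Ovol1 to Pnpla1 (0.994) and the lipid transporter Abca12 (0.993), and Grhl3 to Sdr9c7 and its relative Grhl1 (both 0.991). For Pitx1 they were the desmocollin Dsc2 (0.975) and the stress keratins Krt17 (0.969) and Krt6a (0.968). Krt14 itself ranked 9 among the genes most like Pitx1 (0.96), 95 for Zfp750, 109 for Ovol1, 187 for Grhl3, 216 for Klf5, 231 for Trp63, 260 for Grhl2, 348 for Klf4 and 704 for Sox2. Within the 14 Krt14-high tumours the order was another: Krt14 ranked 111 for Zfp750, 114 for Klf5, 147 for Grhl3, 341 for Klf4, 417 for Ovol1, 4777 for Trp63, 5644 for Sox2, 5954 for Grhl2 and 15432 for Pitx1. Over all 22, Klf4 was nearest to Pak4 (0.979), Klf5 to Kdf1 (0.985) and Sox2, with lower values, to Phlda3 (0.865), Tnnt2 (0.834) and the oral keratin Krt13 (0.802).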

How the data were processed

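Per the labels' protocols, frozen tumours were pulverised, RNA was extracted by column and libraries were sequenced as paired-end reads. The deposited files hold the authors' expected counts per Ensembl gene ID; all were whole numbers (tolerance 1e-09) and were rounded before use. The sources used here do not give aligner, build or annotation. Symbols and positions came from GENCODE M21 (GRCm38), which named 52073 of 56748 IDs, holding 99.39% of counts.

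The 9 genes and all gene lists were chosen with earlier results of these data known. Counts were fitted in edgeR 4.0.16 (R 4.3.3): filterByExpr with a minimum count of 10, TMM, 1 robust quasi-likelihood fit over 22 libraries with a term per group, and Benjamini-Hochberg adjustment over 19202 genes. SEs and intervals derive from the edgeR statistics. Correlations used log2 CPM (prior count 2) with 100000 resamples, or exact permutation for 8 tumours, two-sided. Named genes were the 9, Krt14, Keap1, Nqo1, the 3 genes most like each, overlapping genes and up to 4 passing genes per list by smallest p; others are said to be named after their values were seen, as were Dst, Itgb1, Cldn7, Snai2, Twist2 and Krt5. The fit was tested on simulated data. Alternatives were DESeq2 1.42.0 (test and size factors), limma-voom (limma 3.58.1), library totals, other filters, covariates, Krt5 for Krt14, only the groups compared, and libraries left out. Added after seeing the data were leaving out 4 libraries together, using only titles without R, and correlating within Krt14 sets.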

Additional observations from a re-analysis of the deposited data

Results flagged for a closer look

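The 9 factors and Krt14 in 4 groups made 40 gene-by-group sets, which share tumours and are not independent. In 14 of them a tumour lay far apart from the rest by Dixon's test, where chance flags about 1 in 20. Keap1-wildtype untreated 6 was the low tumour in 8 of these sets: Krt14 was at 763 CPM, Trp63 at 13.7, Pitx1 at 4.33, Klf5 at 6.71, Grhl2 at 1.14, Grhl3 at 0.881, Ovol1 at 1.01 and Zfp750 at 2.69 CPM. Keap1-deleted BAP 4 was far below its group for Krt14 (13.0 CPM), Klf5 (4.43 CPM) and Grhl2 (0.563 CPM). Keap1-wildtype BAP 2 was low for Sox2 (0 CPM) and Ovol1 (81.2 CPM), and Keap1-deleted untreated 3 for Sox2 (0.0775 CPM).

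By the edgeR interaction test the Keap1 effect was more negative with BAP for 7 of the 9 factors, against 4.47% of all genes, and for Krt14. Klf5 (adjusted p = 0.0717) and Sox2 (0.427) did not pass. With single libraries left out the number of factors passing ran from 0 to 8, and calls over all genes from 1 to 2309. On the log2 scale the difference was -4.07 for Trp63, -4.73 for Pitx1, -3.15 for Klf4, -3.35 for Grhl2, -5.09 for Grhl3, -4.98 for Ovol1, -4.56 for Zfp750 and -4.79 for Krt14.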

How the results depend on the processing

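No paired analysis was possible because the labels give no replicate numbers that the groups share. The number of factors called kept within 1.5 times its value under DESeq2 size factors, the DESeq2 test, limma-voom, library totals, a filter of 1 CPM in 5 libraries the R title as a covariate, and Keap1-wildtype untreated 6 and the library labelled Keap1-deleted BAP 2 left out, in all 5 contrasts and the slope. Other settings moved it. For BAP in Keap1-deleted tumours (8 of 9) it was 2 with no low-count filter, 1 with only the groups compared in the fit, 0 with Krt14 as a covariate, 4 without Keap1-wildtype untreated 6 and the libraries labelled Keap1-deleted BAP 2, 3 and 4, and 0 among titles not ending in R. Calls over all genes in these fits went from 1172 to 398, 352, 2, 572 and 11 in that order. For the interaction (7) the number of factors was 0 with no filter and 0 with Krt14 as a covariate. It was 3 without the 4 libraries and 0 among those titles. All-gene calls there went from 1333 to 111, 0, 649 and 680. For Keap1 in BAP tumours (9) the number of factors was 0 with Krt14 as a covariate, when 0 genes were called in all. For Keap1 in untreated tumours (0) it was 1 without the 4 libraries, with 2391 genes called in all, against 56. The unfiltered fit tests more genes, and the fits on fewer groups or libraries hold fewer samples; otherwise the cause was not tested. With each library left out, the counts ranged from 8 to 9 for Keap1 in BAP tumours, 2 to 8 for BAP in Keap1-deleted tumours, 0 to 8 for the interaction, 8 to 8 for the slope, and 0 to 0 for Keap1 in untreated and BAP in Keap1-wildtype tumours.

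Signs turned as follows (log2 change, none called). Under library totals, Sox2 with BAP in Keap1-wildtype tumours was -0.09. With the R title as a covariate, Keap1 in untreated tumours gave 0.14 for Pitx1, 0.022 for Grhl3 and 0.36 for Ovol1. Among titles without R it gave 2.16 for Sox2, 1.03 for Pitx1 and 0.38 for Ovol1. Of the Keap1-wildtype untreated group, only tumours 4 and 6 have such titles. With Krt14 as a covariate, Keap1 in untreated tumours gave 0.23 for Pitx1, 0.46 for Grhl3, 0.62 for Ovol1 and 0.028 for Zfp750, and Keap1 in BAP tumours 0.26 for Klf5, 1.21 for Grhl3, 2.21 for Ovol1 and 0.55 for Zfp750. With that covariate, BAP in Keap1-wildtype tumours gave -0.50 for Sox2, -0.50 for Pitx1, -0.12 for Klf5, -0.30 for Grhl2 and -0.13 for Ovol1. BAP in Keap1-deleted tumours gave 0.29 for Sox2, 0.23 for Klf4, 0.69 for Klf5, 0.83 for Grhl3, 1.46 for Ovol1 and 0.55 for Zfp750, and the interaction 0.79 for Sox2, 0.82 for Klf5, 0.75 for Grhl3, 1.59 for Ovol1 and 0.52 for Zfp750. For BAP in Keap1-wildtype tumours, Sox2 and Grhl2 were -0.055 and -0.084 without Keap1-wildtype untreated 6 and the library labelled Keap1-deleted BAP 2, and -0.06 and -0.066 without the 4 libraries. With single libraries left out, ranges crossed 0 for BAP in Keap1-wildtype tumours in Grhl2 (-0.087 to 0.415) and Sox2 (-0.12 to 0.67), and for Keap1 in untreated tumours in Grhl3 (-0.85 to 0.047), Ovol1 (-0.69 to 0.14) and Pitx1 (-0.60 to 0.061). Correlation with Krt14 in the Krt14-high set was -0.11 for Trp63 and -0.16 for Grhl2 under library totals and 0.039 for Pitx1 against Krt5. With single libraries left out it ran from -0.10 to 0.65 for Grhl2 and from -0.022 to 0.436 for Trp63.

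Library totals in place of TMM moved the median of all genes by up to 0.44 (Keap1 in BAP tumours, from 0 to 0.44), and relative to it Trp63 was -4.87, against -4.85. Genes called there were 7746, 3900 of them higher, with TMM and 8244, 6051 higher, with library totals. Over all genes, Keap1 in untreated tumours gave 56 calls with edgeR, 944 with DESeq2 and 1888 with limma-voom, and 16 to 2731 with single libraries left out. Low counts limit Sox2 above all, with 0 counts in 2 libraries.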
